A study of Mus musculus with 6 samples.

Results

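The iron and heme handling genes described here are 9 genes, chosen by symbol from RNA sequencing of tumour-associated macrophages. They are Hmox1, Blvrb, Fth1, Ftl1, Ncoa4, Slc40a1, Slc11a1, Slc11a2 and Tfrc, out of 35275 genes in the deposited table. The tumours arose in the mammary gland of MMTV-PyMT females, where a mammary promoter drives the oncogene polyoma middle T. All mice were 65 days old, on the FVB/NJ background, and carried loxP-flanked Atg5 alleles (Atg5flox/flox). The 3 Atg5 KO mice also carried LysMcre, a Cre recombinase placed in the Lyz2 gene and active across myeloid cells, and the 3 Atg5 WT mice did not. Cells were sorted as CD11b+ F4/80+ Ly6G- Ly6C-. The comparison asks how these transcripts differ between mice with LysMcre, which targets Atg5 in myeloid cells, and mice without it.

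Macrophages take up dying red cells and other debris, open the heme ring, and store or release the iron. Heme oxygenase cleaves heme, ferritin holds the freed iron in its shell, and ferroportin carries iron out of the cell. Autophagy enters this cycle through ferritinophagy, in which the receptor NCOA4 brings ferritin to the autophagosome so that the lysosome can free its iron. Atg5 is part of the conjugation machinery that builds the autophagosome. When cellular iron is low, the iron regulatory proteins bind iron-responsive elements, hairpins in untranslated regions of mRNA. Binding in a 5′ untranslated region blocks translation, and binding in the 3′ untranslated region of the transferrin receptor mRNA protects that mRNA from decay.

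The hairpins found by a strict pattern are shown because their place in the mRNA differs between Tfrc and the ferritin and ferroportin genes. One mRNA form of Slc11a2 is also known to carry such an element in its 3′ untranslated region, which this pattern did not match. The untranslated regions of 21864 protein-coding genes were searched in the transcript sequences and annotation of GENCODE M21 (GRCm38, the mm10 build) on the transcribed strand for an unpaired C, 5 bases, the loop CAGTGN and 5 bases that pair with the first 5, with at least 3 more pairs below the C. Such a hairpin was held by 11 genes (0.0503%), of which Igf2 and Gm49394 share the same one, and 4 of the 9 members were among them. The pattern was written after iron-responsive elements, so these matches are no test of enrichment among the members. The loop of 6 bases is in capitals and each sequence runs 5′ to 3′ over 27 bases.
Fth1, 5′ untranslated region, chr19:9982733-9982759, plus strand: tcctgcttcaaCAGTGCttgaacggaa
Ftl1, 5′ untranslated region, chr7:45459780-45459806, minus strand: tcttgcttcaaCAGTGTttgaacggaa
Slc40a1, 5′ untranslated region, chr1:45925466-45925492, minus strand: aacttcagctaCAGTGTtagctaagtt
Tfrc hairpin 1, 3′ untranslated region, chr16:32631220-32631246, plus strand: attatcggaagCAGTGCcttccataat
Tfrc hairpin 2, 3′ untranslated region, chr16:32631599-32631625, plus strand: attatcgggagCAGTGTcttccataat
Tfrc hairpin 3, 3′ untranslated region, chr16:32631664-32631690, plus strand: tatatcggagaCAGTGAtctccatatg
Tfrc hairpin 4, 3′ untranslated region, chr16:32631711-32631737, plus strand: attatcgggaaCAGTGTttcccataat
The ferritin heavy and light chain hairpins share all but a few bases. A match describes these letters and is not a measurement of binding, and the FPKM values below measure mRNA and not ferritin or ferroportin protein.

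Expression is given as FPKM, reads scaled to gene length and library size, so levels can be set beside each other between genes. Libraries held between 18770262 and 21173301 reads assigned to genes, as recovered from the FPKM values. A member had between 492 and 178713 reads in a library, and counting alone gives the smallest of these an error of 4.51%. All 9 members passed the filter on low values (mean FPKM of 1 or more), which left 12332 genes to test. Gene-level Atg5 went against its label, with FPKM of 14.0, 16.6 and 17.4 in Atg5 KO and 5.15, 5.11 and 5.28 in Atg5 WT. This value covers the whole gene and does not isolate the deleted part. Lyz2, at the Cre locus, went with the label, with 8.43, 11.8 and 16.1 FPKM in Atg5 KO and 4707, 2060.4 and 6571 in Atg5 WT. Atg5 WT mice carried no Cre, so effects of Cre, of the low Lyz2 and of Atg5 deletion cannot be told apart here. Autophagy itself was not measured. Groups below are named by their labels.

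The libraries also differed in cell type markers. All 17 macrophage markers in the list were detected, led by the complement genes C1qa and C1qb, with a score (mean log2(FPKM + 1)) of 8.36, 8.53 and 8.70 in Atg5 KO and 8.06, 6.83 and 8.58 in Atg5 WT. The mammary epithelium and tumour cell score, over 21 detected markers led by Csn3 and Lcn2, was 6.04, 4.62 and 4.11 in Atg5 KO and 6.55, 7.51 and 4.38 in Atg5 WT. Atg5 WT replicate 2 thus had the lowest macrophage and the highest tumour-cell score. It was also the lowest library for 7 of the 9 members (Hmox1, Blvrb, Fth1, Ftl1, Ncoa4, Slc40a1 and Slc11a1) and the highest for Tfrc. Its part in the results was not tested beyond the values without it, which are given beside them. In bulk samples, fewer cells of a type and less RNA per cell cannot be told apart. The fibroblast score, led by Sparc and Col3a1, was 2.09 to 3.19 in Atg5 KO and 3.52 to 5.60 in Atg5 WT, and the endothelial score, led by Pecam1 and Cdh5, was 1.14 to 1.84 in Atg5 KO and 2.07 to 3.24 in Atg5 WT. The exact two-sided permutation p was 0.1, the smallest possible, for both the fibroblast and the endothelial score (n = 3 each). It was 0.3 for the mammary epithelium and tumour cell score. The part of fibroblasts and endothelial cells in the results was not tested. Neutrophil and monocyte, lymphocyte and dendritic cell scores overlapped between groups. Red cell transcripts had low values. Hba-a1 stood at 3.23 to 8.38 FPKM in Atg5 KO and 3.96 to 19.0 in Atg5 WT. Hbb-bs stood at 1.29 to 6.74 in Atg5 KO and 4.59 to 13.2 in Atg5 WT, and Hba-a2 was listed at 0 throughout. How reads shared between globin genes were assigned is not known, so these values may be too low. Summed over the red cell markers in the table, FPKM was 6.07 to 16.5 in Atg5 KO and 10.2 to 34.3 in Atg5 WT.

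No member passed the test over all genes, against a background of 0.00811% of genes called (limma-trend, Benjamini-Hochberg adjusted p, threshold 0.05; 1 gene, Lyz2). The smallest adjusted p among the members was 0.492, and limma-voom on the recovered reads also called 0 members. At an unadjusted p under 0.05 there were 3 members, Blvrb, Slc40a1 and Slc11a1, all with a higher mean in Atg5 KO, where 4.84% of all tested genes were, and none with a lower mean, where 5.17% were. For the same 3 members every Atg5 KO library lay above every Atg5 WT library, which held for 9.2% of tested genes. No member had all Atg5 KO libraries below all Atg5 WT libraries, which held for 9.41%. Without Atg5 WT replicate 2 the groups stood apart for the same 3 members with Atg5 KO higher (13.4% of tested genes) and for Slc11a2 with Atg5 KO lower (12.8%), where the nearest libraries both stood at 20.8 FPKM. The mean log2(FPKM + 1) was higher in Atg5 KO for 7 members and lower for 2, Slc11a2 and Tfrc. Over all 12332 tested genes it was higher for 4593 and lower for 7739. The median difference of the members, Atg5 KO minus Atg5 WT, was 0.38, against -0.09 over all tested genes. Without Atg5 WT replicate 2 it was 0.10, against -0.02, and without Atg5 WT replicate 3 it was 0.66, against -0.15. Relative to the macrophage score it was -0.33, against -0.80 over all tested genes.

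**Figure D1:**
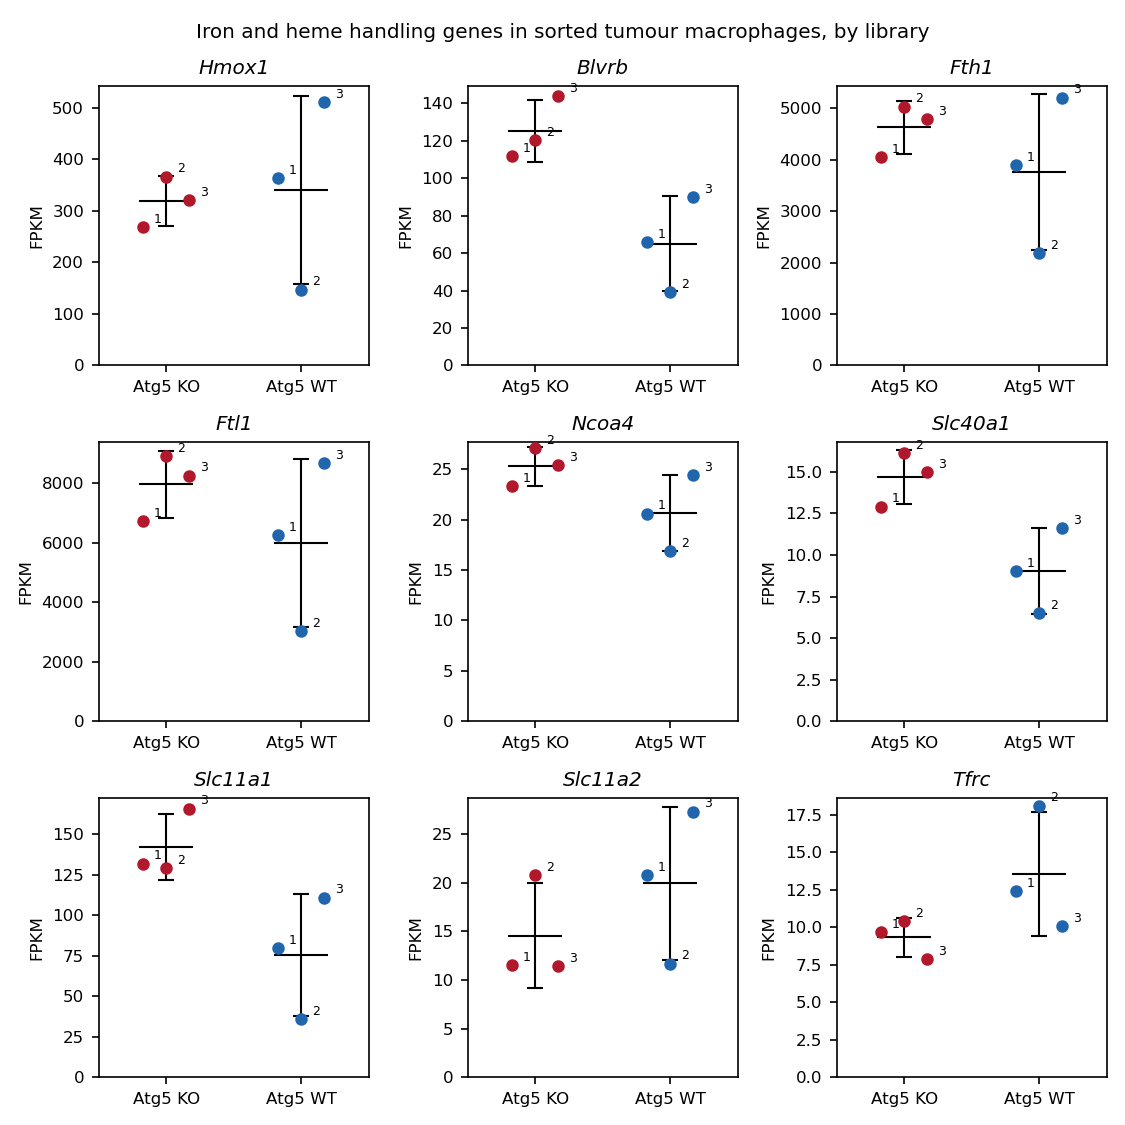
FPKM of each member (vertical axis, from 0) in the 3 Atg5 KO libraries (red, left) and the 3 Atg5 WT libraries (blue, right), with replicate numbers beside the points; the horizontal bar is the mean and the whisker 1 SD. Atg5 KO and Atg5 WT libraries stand apart for Blvrb, Slc40a1 and Slc11a1, and Atg5 WT replicate 2 is lowest for 7 of the 9 genes.

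Heme breakdown begins with Hmox1 (chromosome 8, 75093591 to 75100596, mm10), which encodes the inducible heme oxygenase. Its FPKM was 269, 366 and 321 in Atg5 KO and 364, 147 and 510.0 in Atg5 WT. The Atg5 KO libraries lay inside the range of the Atg5 WT libraries, which spread over 3.47-fold. The means were 319 ± 48.6 in Atg5 KO and 340.4 ± 183 in Atg5 WT (SD, n = 3 each), with a log2 difference of 0.07 and a 95% interval from -1.07 to 1.21 (limma-trend adjusted p = 0.945). The difference was -0.44 without Atg5 WT replicate 2 and 0.45 without Atg5 WT replicate 3, so its sign depended on which libraries were kept.

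Blvrb (chromosome 7, 27447978 to 27466144) encodes biliverdin reductase B, which reduces a product of heme cleavage and also flavins. Its FPKM was 112, 120.2 and 144 in Atg5 KO and 65.9, 39.2 and 90.0 in Atg5 WT. The groups did not overlap, and the nearest libraries were Atg5 KO replicate 1 and Atg5 WT replicate 3. The mean was 1.93-fold higher in Atg5 KO (126 ± 16.9 in Atg5 KO and 65.0 ± 25.4 in Atg5 WT, SD, n = 3 each), a log2 difference of 1.01 (SE 0.31; limma-trend adjusted p = 0.492). Without Atg5 WT replicate 2 the difference was 0.69. Relative to the macrophage score it was 0.30 with an SE of 0.38, and the groups overlapped. Blvra, which encodes the main biliverdin reductase of adult tissue, had 31.4, 38.2 and 36.4 FPKM in Atg5 KO and 27.4, 17.2 and 39.3 in Atg5 WT, and these ranges overlapped.

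The ferritin genes were among the most abundant transcripts. Ftl1 (chromosome 7, 45457944 to 45459884), the light chain that helps build the iron core, had 6723, 8904 and 8250.3 FPKM in Atg5 KO and 6255, 3046 and 8665 in Atg5 WT. It ranked between 2 and 3 among all genes in Atg5 KO, and between 2 and 8 in Atg5 WT. Fth1 (chromosome 19, 9982703 to 9985092), the heavy chain with the ferroxidase centre, had 4056, 5033 and 4796 FPKM in Atg5 KO and 3900.4, 2190.0 and 5208 in Atg5 WT. Both chains overlapped between groups, and Atg5 WT replicate 2 alone lay well below the other 5 libraries. The log2 difference was 0.53 with an interval from -0.54 to 1.59 for Ftl1 (limma-trend adjusted p = 0.572) and 0.38 with an interval from -0.50 to 1.26 for Fth1 (adjusted p = 0.605). Leaving out that library brought them to 0.10 for Ftl1 and 0.03 for Fth1, and leaving out Atg5 WT replicate 3 instead gave 0.86 for Ftl1 and 0.66 for Fth1. The 2 chains together took 1.00, 1.30 and 1.21% of reads in Atg5 KO and 0.943, 0.484 and 1.29% in Atg5 WT. Ferritin pseudogenes listed in the table, Ftl2 and Fth-ps2, stayed at or below 1.20 FPKM, and how reads shared with them were assigned is not known.

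Ncoa4 (chromosome 14, 32159865 to 32179855), the ferritin autophagy receptor, varied least of the 9 members, over 1.60-fold in 6 libraries. Its FPKM was 23.3, 27.1 and 25.4 in Atg5 KO and 20.6, 16.9 and 24.4 in Atg5 WT. Atg5 WT replicate 3 lay above Atg5 KO replicate 1, so the groups overlapped. The log2 difference was 0.29 with an interval from -0.08 to 0.66 (limma-trend adjusted p = 0.507). It was 0.16 when Atg5 WT replicate 2 was left out. Relative to the macrophage score it was -0.42 with an SE of 0.50.

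Iron export was represented by Slc40a1 (chromosome 1, 45908068 to 45926523), which encodes ferroportin, the known iron exporter of mammalian cells. Its FPKM was 12.9, 16.1 and 15.0 in Atg5 KO and 9.01, 6.49 and 11.6 in Atg5 WT. The groups did not overlap, although Atg5 KO replicate 1 and Atg5 WT replicate 3 lay close. The mean was 1.62-fold higher in Atg5 KO (14.7 ± 1.63 in Atg5 KO and 9.05 ± 2.57 in Atg5 WT, SD, n = 3 each), a log2 difference of 0.67 (SE 0.21; limma-trend adjusted p = 0.492). It was 0.47 without Atg5 WT replicate 2, and relative to the macrophage marker score it was -0.04 with an SE of 0.54.

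Of the 2 proton-coupled metal transporters, Slc11a1 (chromosome 1, 74375195 to 74386062) encodes the NRAMP1 protein of the macrophage phagosome. Its FPKM was 132, 129 and 166 in Atg5 KO and 79.8, 36.1 and 111 in Atg5 WT, with no overlap. The mean was 1.88-fold higher in Atg5 KO (142 ± 20.8 in Atg5 KO and 75.8 ± 37.8 in Atg5 WT, SD, n = 3 each), a log2 difference of 1.03 (SE 0.41; limma-trend adjusted p = 0.492). It came to 0.58 when Atg5 WT replicate 2 was left out. Slc11a2 (chromosome 15, 100387898 to 100425072) encodes DMT1, which moves iron out of the endosome after transferrin uptake. It had 11.5, 20.8 and 11.4 FPKM in Atg5 KO and 20.8, 11.7 and 27.3 in Atg5 WT. Replicates 1 and 3 of Atg5 KO and replicate 2 of Atg5 WT were low, and the ranges overlapped. The log2 difference was -0.41 with an interval from -1.31 to 0.49 (limma-trend adjusted p = 0.592). It was -0.73 without Atg5 WT replicate 2 and -0.15 without Atg5 WT replicate 3. The antisense predicted gene Gm5475 overlaps Slc11a2 and averaged 0.449 FPKM.

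Tfrc (chromosome 16, 32608920 to 32632794) encodes transferrin receptor 1, which brings transferrin-bound iron into the cell and is abundant in dividing cells. Its FPKM was 9.66, 10.4 and 7.90 in Atg5 KO and 12.4, 18.1 and 10.1 in Atg5 WT. Atg5 KO replicate 2 lay above Atg5 WT replicate 3, and the highest value was that of Atg5 WT replicate 2. That library also had the highest tumour-cell, fibroblast and endothelial scores, and the part of those cells in its Tfrc level was not tested. The log2 difference was -0.47 with an interval from -1.02 to 0.08 (limma-trend adjusted p = 0.499), and -0.25 without Atg5 WT replicate 2. Among the members with a hairpin shown, Slc40a1, Fth1 and Ftl1 had a higher mean in Atg5 KO and Tfrc a lower one, with none past the test. Relative to the macrophage score all 4 were lower in Atg5 KO, but on this scale the median over all tested genes was -0.80. The differences were -0.04 for Slc40a1, -0.33 for Fth1, -0.18 for Ftl1 and -1.18 for Tfrc, so only Tfrc lay below that median.

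Ordered by mean FPKM over 6 libraries, the members ran Ftl1, Fth1, Hmox1, Slc11a1, Blvrb, Ncoa4, Slc11a2, Slc40a1 and Tfrc. The ranges over libraries stood apart between Fth1 and Hmox1 and between Blvrb and Ncoa4, and overlapped between all other neighbours in this order. Ftl1 nevertheless exceeded Fth1 within each of the 6 libraries, and Hmox1 exceeded Slc11a1 in each. Tfrc and Slc40a1 exchanged places, with Slc40a1 higher in 4 of 6 libraries.

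**Figure D2:**
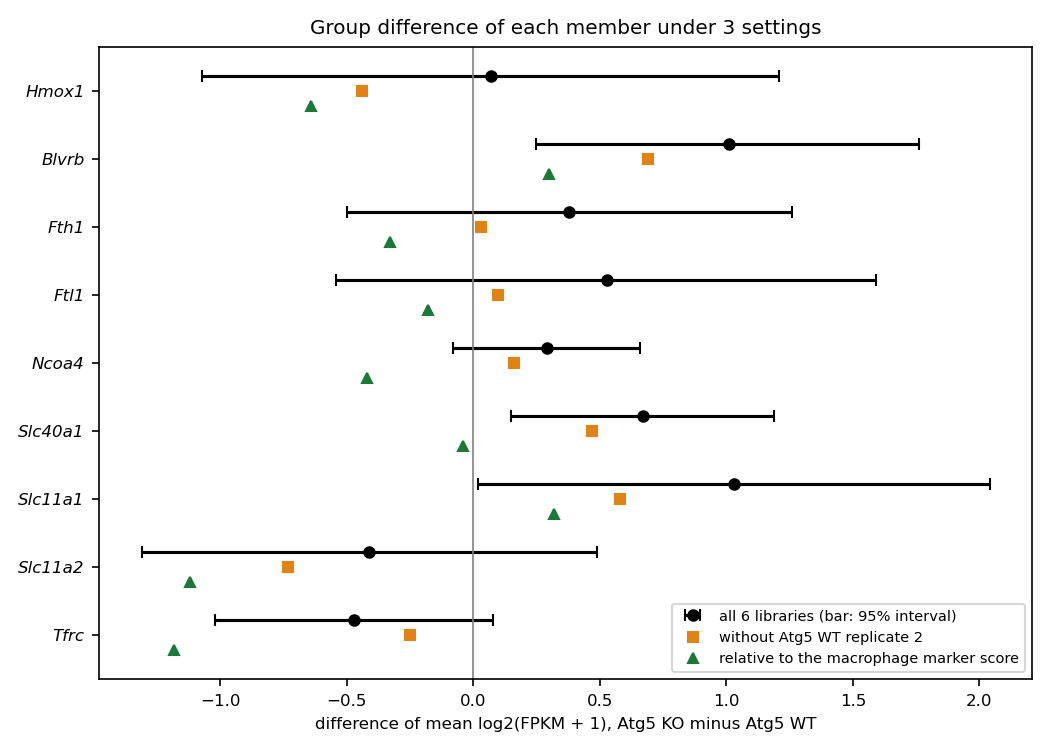
Difference of mean log2(FPKM + 1), Atg5 KO minus Atg5 WT, for each member over all 6 libraries (circles, with 95% intervals), without Atg5 WT replicate 2 (squares) and relative to the macrophage marker score (triangles). Blvrb and Slc11a1 stay to the right of 0 in all 3 settings, Slc11a2 and Tfrc to the left, and Hmox1, Fth1, Ftl1, Ncoa4 and Slc40a1 change side.

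Because macrophage marker levels differed between libraries, each member was also expressed relative to the macrophage score of its library. That score includes neither Lyz2 nor any member, and its group difference of 0.71 had an exact two-sided permutation p of 0.3 (n = 3 each, smallest possible 0.1). On this scale Hmox1 stood at -0.28, -0.01 and -0.37 in Atg5 KO and at 0.45, 0.38 and 0.42 in Atg5 WT. The SD of Hmox1 among Atg5 WT libraries was 0.04 on this scale, and all Atg5 KO libraries lay below all Atg5 WT libraries. The difference was -0.64 (SE 0.34; limma-trend adjusted p = 0.436). Slc11a2 lay lower in Atg5 KO without overlap too, at -4.71, -4.08 and -5.07 against -3.61, -3.15 and -3.75 in Atg5 WT. So did Fth1, at 3.63, 3.77 and 3.53 in Atg5 KO and 3.87, 4.27 and 3.77 in Atg5 WT, with the nearest values equal after rounding. These 3 members are read against a background of 11.6% of tested genes lower without overlap on this scale. Slc11a1 was the 1 member higher without overlap, at -1.30, -1.51 and -1.31 in Atg5 KO and -1.72, -1.61 and -1.76 in Atg5 WT. Its difference was 0.32 (SE 0.37; limma-trend adjusted p = 0.483). Of all tested genes 0.649% were higher without overlap. Subtracting the score lowered every difference, to a median of -0.80 over all tested genes, so this share is small by construction. Of the 17 markers behind the score, 3 were higher without overlap in Atg5 KO by FPKM, before the score was subtracted. On the relative scale some markers, among them Aif1 and Tyrobp, were higher without overlap as Slc11a1 was, and others, among them Cd14, were not. The part of the markers in these differences was not tested.

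Ratios of 2 members within a library do not depend on library scaling. They were calculated for 5 pairs of related members as a description, with no test. The share of all gene pairs whose ratios stand apart was not calculated. The ratio of Slc11a1 to Slc11a2 was 11.5, 6.20 and 14.6 in Atg5 KO and 3.83, 3.07 and 4.08 in Atg5 WT. The phagosomal transporter thus exceeded the endosomal one in every library, and the ratio was higher in every Atg5 KO library, by 1.48 on the log2 scale (2.79-fold). The ratio of Hmox1 to Blvrb was 2.40, 3.05 and 2.23 in Atg5 KO and 5.53, 3.75 and 5.67 in Atg5 WT. It was lower in every Atg5 KO library, with a log2 difference of -0.95. The ratio of the exporter Slc40a1 to the importer receptor Tfrc was 1.33, 1.55 and 1.90 in Atg5 KO and 0.724, 0.359 and 1.15 in Atg5 WT. It was higher in Atg5 KO without overlap, by 1.24 on the log2 scale, and by 0.79 without Atg5 WT replicate 2. The fibroblast score, at 3.19, 2.95 and 2.09 in Atg5 KO and 4.19, 5.60 and 3.52 in Atg5 WT, ordered the 6 libraries exactly the other way, and its part in this ratio was not tested. Each ratio that stood apart holds Slc11a1, Blvrb or Slc40a1, whose groups already stood apart as single genes, so it is not a separate result.

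The ratios inside the ferritin pathway overlapped. Fth1 over Ftl1 was 0.603, 0.565 and 0.581 in Atg5 KO and 0.624, 0.719 and 0.601 in Atg5 WT, a log2 difference of -0.15, and -0.07 without Atg5 WT replicate 2. Ncoa4 over Fth1 was 0.00573, 0.00539 and 0.00529 in Atg5 KO and 0.00528, 0.00773 and 0.00469 in Atg5 WT. Its log2 difference was -0.08, and 0.14 without Atg5 WT replicate 2. The highest of the 6 values was that of Atg5 WT replicate 2.

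**Figure D3:**
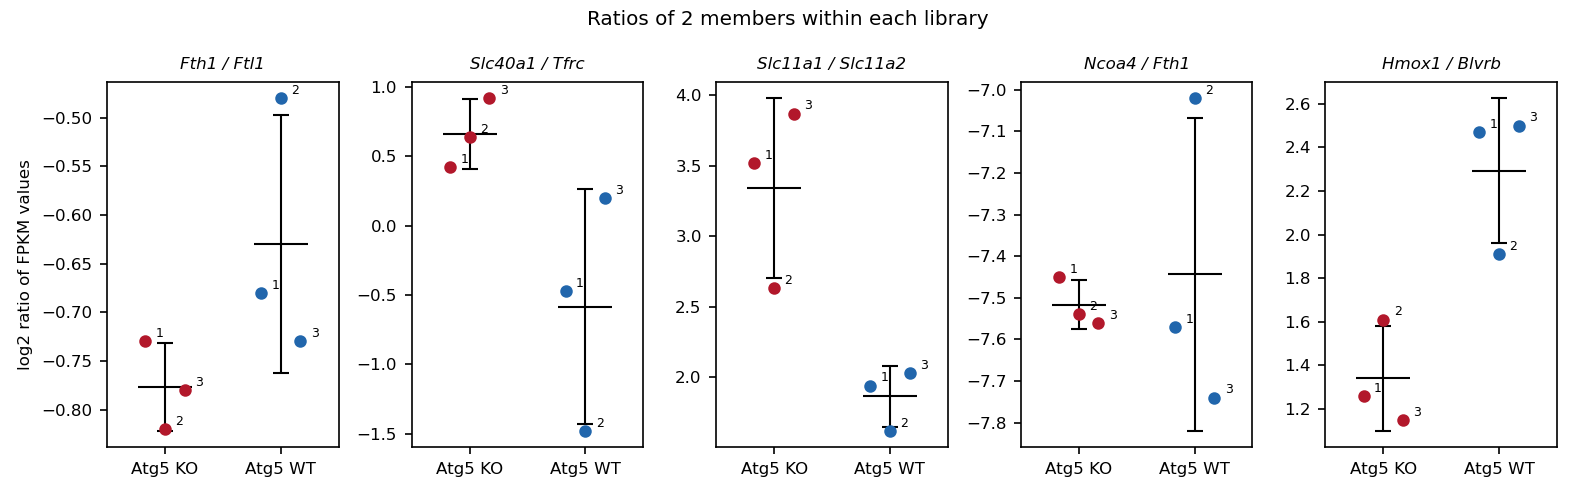
log2 ratio of FPKM values of 2 members within each library (vertical axis, scaled per panel and not from 0) in Atg5 KO (red, left) and Atg5 WT (blue, right), with replicate numbers, the mean (bar) and 1 SD (whisker). Slc40a1 over Tfrc and Slc11a1 over Slc11a2 are higher in every Atg5 KO library, Hmox1 over Blvrb is lower in every one, and the 2 ratios with Fth1 overlap.

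The other iron and heme genes were drawn from 6 lists with 58 entries, all of them in the table and 50 tested. None passed over all genes in either direction, 0 higher and 0 lower (limma-trend smallest adjusted p = 0.492). At an unadjusted p under 0.05 there was 1 higher and 4 lower of the 50, where 4.84% and 5.17% of all tested genes were. Groups stood apart with Atg5 KO higher for 4 and lower for 7 of the 50, where 9.2% and 9.41% of all tested genes did. The median difference was -0.08, near the -0.09 of all tested genes. The mean was higher in Atg5 KO for 19 of the 50 and lower for 31. Of all 12332 tested genes 4593 were higher and 7739 lower, and the counts per list below are read against that. Per list, 0 genes of each passed.

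Among genes of heme uptake and transport, 2 of 8 tested had a higher mean in Atg5 KO and 6 a lower one, with a median of -0.25 (-0.14 once Atg5 WT replicate 2 was left out). The heme exporter gene Flvcr1 (listed as Mfsd7b) had 6.37, 6.35 and 5.17 FPKM in Atg5 KO and 8.33, 8.33 and 7.40 in Atg5 WT, without overlap. Pgrmc1, whose protein binds heme, had 42.6 ± 6.86 FPKM in Atg5 KO and 58.5 ± 15.3 in Atg5 WT (SD, n = 3 each, as for the other means below). Among genes of heme breakdown and its regulators, 3 of 8 were higher and 5 lower, with a median of -0.06, which moved to -0.44 once Atg5 WT replicate 2 was left out. Hmox2, the constitutive heme oxygenase, had 31.4, 28.8 and 32.4 FPKM in Atg5 KO and 24.0, 22.1 and 26.2 in Atg5 WT, a difference of 0.35 with an SE of 0.10. Mafg, a small Maf protein that pairs with NRF2 or BACH1, had 18.1, 20.8 and 13.9 in Atg5 KO and 26.6, 26.5 and 26.1 in Atg5 WT, a difference of -0.57 with an SE of 0.15. The limma-trend adjusted p was 0.492 for Flvcr1, Hmox2 and Mafg.

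Heme synthesis genes were even, 4 higher and 4 lower of 8, with a median of 0.03 (0.12 once Atg5 WT replicate 2 was left out). Fech, which inserts iron into the ring, had 13.7 ± 0.413 in Atg5 KO and 11.7 ± 0.602 in Atg5 WT, and Ppox, which acts one step earlier, had 6.40 ± 0.682 in Atg5 KO and 5.32 ± 0.723 in Atg5 WT. Of 9 genes of iron import, reduction and export, 3 were higher and 6 lower, with a median of -0.77. It was -0.19 once Atg5 WT replicate 2 was left out, and turned to 0.12 when the tumour-cell score entered the fit. In Atg5 WT replicate 2, 7 of the 9 were at their highest, among them Cp, Steap4, Slc22a17 and Lcn2. Slc39a14, a zinc and iron importer, had 17.6, 16.7 and 10.3 FPKM in Atg5 KO and 25.3, 37.9 and 21.8 in Atg5 WT, a difference of -0.88 with an SE of 0.28 and no overlap. Mcoln1, the lysosomal cation channel that lets iron out, had 25.7 ± 0.858 in Atg5 KO and 23.0 ± 1.27 in Atg5 WT. The siderophore-binding protein gene Lcn2 is also in the mammary epithelium and tumour cell marker list, and its FPKM was 931, 297 and 264 in Atg5 KO and 1202, 2858 and 238 in Atg5 WT. Libraries ranked by Lcn2 as by the tumour-cell score, which includes it, except for the 2 lowest, and the part of those cells in its level was not tested.

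Of 8 genes of iron sensing and delivery, 3 were higher and 5 lower, with a median of -0.14 (0.02 once Atg5 WT replicate 2 was left out). Epas1, a hypoxia-inducible transcription factor that endothelial cells also express, had 4.03, 2.70 and 1.37 FPKM in Atg5 KO and 8.19, 12.1 and 3.86 in Atg5 WT, so the groups overlapped. The endothelial score was lower in every Atg5 KO library than in any Atg5 WT library, and its part in the Epas1 values was not tested. Pcbp1, an iron chaperone that loads ferritin, had 129 ± 4.80 in Atg5 KO and 148 ± 7.46 in Atg5 WT, without overlap. The mRNAs of the iron regulatory proteins, Aco1 and Ireb2, overlapped between groups, with differences of -0.11 and -0.18. Of 9 mitochondrial iron genes, 4 were higher and 5 lower, with a median of -0.02. Iscu, the scaffold for iron-sulfur clusters, had 49.2, 52.9 and 51.9 in Atg5 KO and 40.9, 32.9 and 47.1 in Atg5 WT, and Cisd1, an outer-membrane iron-sulfur protein, had 10.4 ± 0.997 in Atg5 KO and 12.3 ± 0.526 in Atg5 WT. The limma-trend adjusted p was 0.492 for Fech, Slc39a14, Epas1 and Iscu, and between 0.494 and 0.528 for Pgrmc1, Ppox, Mcoln1, Pcbp1 and Cisd1.

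**Figure D4:**
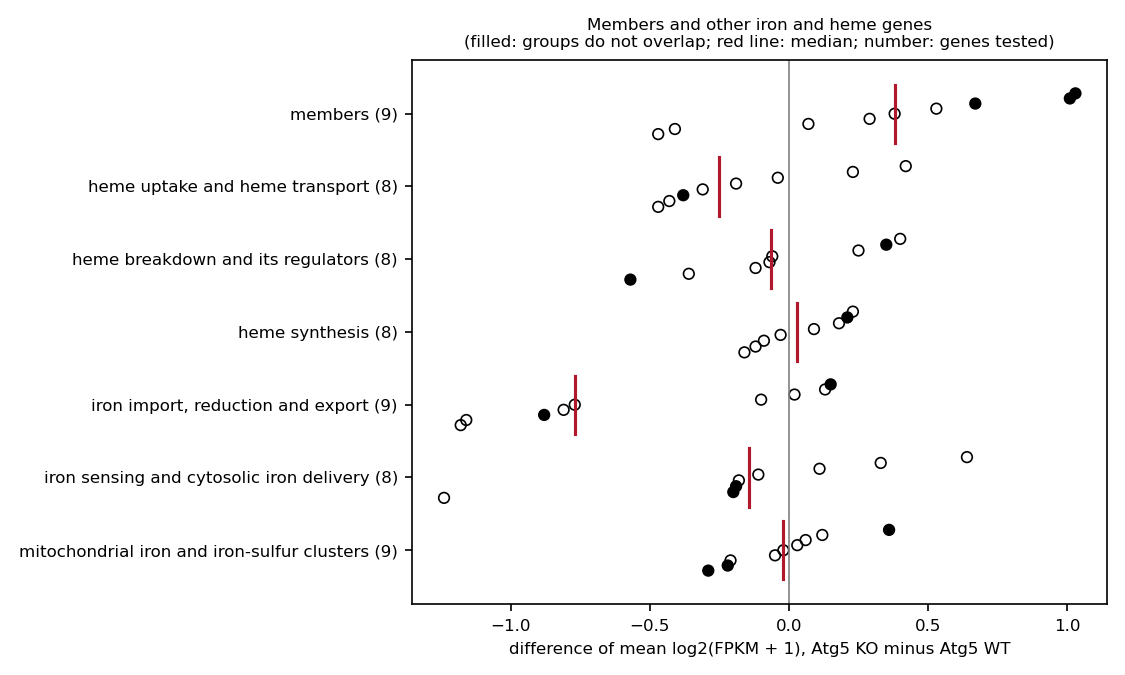
Difference of mean log2(FPKM + 1), Atg5 KO minus Atg5 WT (horizontal axis), for the 9 members and the 50 other tested genes by list; filled circles are genes whose groups do not overlap, red lines are list medians, and the number of genes tested is in brackets. The members have a median of 0.38 and the import, reduction and export list a median of -0.77 (-0.19 once Atg5 WT replicate 2 was left out, and 0.12 when the tumour-cell score entered the fit), with the other list medians between -0.25 and 0.03.

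The 3 members that varied most over the 6 libraries were Slc11a1, Blvrb and Hmox1. Likeness to other genes was measured as the root mean square distance between log2(FPKM + 1) values, each centred on the gene's own mean, over 6 libraries and 7974 genes whose FPKM averaged 5 or more. These distances describe likeness only, and share depth and cell content across the libraries. The genes nearest to Slc11a1 were Cd74, the invariant chain of MHC class II (distance 0.028), and the purinergic receptor gene P2ry13 (0.029). Cd74 had 8172, 7796 and 10696 FPKM in Atg5 KO and 4919, 2255 and 6859 in Atg5 WT. The genes nearest to Blvrb were Adap2 (0.055) and the chemokine gene Ccl6 (0.069), and those nearest to Hmox1 were Runx3 (0.061) and Cd40 (0.072). Runx3 had 25.1, 39.6 and 32.6 FPKM in Atg5 KO and 35.4, 13.8 and 50.4 in Atg5 WT, the order of libraries also seen for Hmox1.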

How the data were processed

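The deposited values are FPKM per gene and library, made by the authors; the submitters' processing notes name STAR, CASAVA and the build mm10 without versions, and the counting program, strand setting and annotation were not given in the sources used. FPKM times the deposited gene length was divided by its smallest nonzero value in each library, taken as 1 read. This gave whole reads for 100.0% of values (tolerance 0.01 read). Groups and replicate numbers came from the labels, 1 library per mouse. The members and gene lists were chosen with earlier results of these data known, and the 2 genes of smallest p in each pathway list were named by rule, with Blvra, Lcn2, Cp, Steap4, Slc22a17, Aco1, Ireb2 and those of the other observations named outside it, after their values were seen. Genes averaging 1 FPKM or more were kept, and on the log2(FPKM + 1) scale limma 3.58.1 (R 4.3.3) was fitted with a variance trend and the group as its only term, two-sided, with p adjusted over 12332 genes. Fold changes on this scale understate those of low genes. The fit was tested on simulated counts with no differences in cell content between libraries, so that test does not cover such differences. Of 169 list entries, 4 had no row. There were 16 alternatives: pseudocounts of 0.1 and 0.5, filters, scalings, limma-voom, the replicate block, a tumour-cell covariate and leaving out each library. Scores were compared by exact permutation.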

Additional observations from a re-analysis of the deposited data

How the results depend on the processing

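In all 16 alternatives 0 members and 0 other iron and heme genes passed over all genes. The count of all genes called, 1 in the main analysis, was 0 under median-ratio scaling, with no filter and with the replicate block, and ranged from 0 to 16 when 1 library was left out (16 without Atg5 WT replicate 2). Blvrb and Slc11a1 kept a higher mean in Atg5 KO, and Slc11a2 and Tfrc a lower one, in all 16. Hmox1 turned negative in 5: -0.02 under quantile normalization, -0.64 relative to the macrophage score, -0.44 with the tumour-cell score as covariate, -0.44 without Atg5 WT replicate 2 and -0.03 without Atg5 KO replicate 2, with a range from -0.44 to 0.45 when 1 library was left out. Relative to the macrophage score Fth1 (-0.33), Ftl1 (-0.18), Ncoa4 (-0.42) and Slc40a1 (-0.04) were negative too, and so was the median of the members (-0.33). The shift of that score, 0.71, enters each of these by construction, and causes of the other turns were not tested. Median-ratio scaling shifted the median of all tested genes to 0.03, against -0.09 in the main analysis, and that of the members to 0.52. Leaving out 1 library moved the members' median between 0.10 and 0.66. Labels do not say that equal replicate numbers pair mice, and deviations of same-numbered libraries correlated at 0.21, -0.38 and 0.59, so the block was not used for the main result; with it the adjusted p of Blvrb was 0.377. With 3 libraries a group, intervals such as that of Hmox1 (-1.07 to 1.21) leave changes of over 2-fold in either direction undetected. The fewest reads of a member, 492, give a counting error of 4.51%.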

Other observations

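Within the Atg5 KO group, replicate 2 differed from replicates 1 and 3 in several genes of the heme response, chosen here after their values were seen. Bach1, which encodes the heme-sensing repressor of Hmox1, had 33.5, 64.7 and 38.0 FPKM in Atg5 KO replicates 1, 2 and 3, and 53.7, 27.5 and 70.9 in the Atg5 WT libraries. Nfe2l2, which encodes NRF2, had 117, 207 and 137 in Atg5 KO and 174, 93.9 and 229 in Atg5 WT. Cd163, the hemoglobin-haptoglobin receptor, had 20.8, 65.2 and 25.7 in Atg5 KO and 49.4, 26.3 and 73.1 in Atg5 WT. Slc11a2 had the same order of high and low libraries, with Atg5 KO replicate 2 and Atg5 WT replicates 1 and 3 high. This order is not particular to heme genes. The macrophage marker Cd14 had 834, 1598 and 905 FPKM in Atg5 KO and 1521, 855 and 1977 in Atg5 WT. Retnlg, in the neutrophil and monocyte list, had 14.2, 34.3 and 13.9 in Atg5 KO and 31.3, 14.8 and 45.7 in Atg5 WT. Hmox2 and Keap1, in the list of heme breakdown and its regulators, did not show it. The dendritic cell marker score was also highest in Atg5 KO replicate 2 (1.93, 2.64 and 1.83 in Atg5 KO, and 2.36, 2.11 and 2.52 in Atg5 WT), and its part in these values was not tested.

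Spic, the transcription factor of iron-recycling red pulp macrophages in the spleen, had low values, at 1.98, 2.09 and 1.60 FPKM in Atg5 KO and 2.50, 0.769 and 3.47 in Atg5 WT. Hamp, which encodes the ferroportin ligand hepcidin, stood at 1.08, 1.97 and 1.28 in Atg5 KO and 0.535, 1.98 and 1.36 in Atg5 WT, from 4 to 16 reads a library.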
